A study of Mus musculus with 42 samples.

Results

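Liver transcriptomes of 16 female APOE*3-Leiden mice fed a Western-type diet (WTD) for 32 weeks were examined for the genes that varied most, and for the genes that varied together, from mouse to mouse. The 16 libraries were those with the WTD treatment label among 42 libraries in all. The genes were the 6710 of 54446 that had a mean of at least 20 CPM in these libraries. CPM are counts scaled to the effective size of each library, which is its total count multiplied by a normalization factor (TMM). APOE*3-Leiden mice carry a human APOE*3-Leiden transgene and develop a human-like lipoprotein profile on a diet rich in cholesterol. The mice were 8 to 14 weeks old at the start and had a run-in of 3 weeks on the WTD, after which the 32 weeks were counted. The WTD contained 15% cocoa butter, 40.5% sucrose and 1% cholesterol, and 0.05% sodium cholate was added from week 22. For comparison, 10 mice of the same transgenic line remained on chow, and 16 received the WTD with atorvastatin, an inhibitor of HMG-CoA reductase, at 3.0 mg/kg/day and from week 5 at 4.5 mg/kg/day. Each library was the liver of 1 mouse, and the mice are numbered here in the order of their deposition within a group, so a number names a mouse and nothing else. Mice were group-housed, and cage, batch and hour of sacrifice per mouse are not given in the sources used here.

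Mice on this diet accumulate lipid in the liver and develop inflammation and scarring. In that state stellate cells lay down fibrillar collagen, macrophages that take up lipid and debris switch on a lysosomal program marked by Gpnmb and Trem2, and hepatocytes raise acute phase proteins and lower many metabolic enzymes. Hepatocytes also run lipid synthesis under the sterol- and insulin-responsive SREBP factors, and a circadian program in which Bmal1 (gene Arntl) drives Dbp, Tef and Nr1d1. As reference points for these programs, 6 genes were used, called anchors below: Col1a1, Gpnmb, Alb, Lcn2, Hmgcs1 and Dbp. For each other gene, the slope on an anchor is the change in log2 expression per doubling of that anchor among the mice.

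The 16 WTD libraries held 15661381 to 36224054 counts in genes (median 21095129), and each of the 6710 genes had counts in every library. Libraries did not sample weak genes equally. Among genes at 1 to 2 CPM in the other mice of the group, 23.0% had no count in mouse 8, 43.3% in mouse 9, 48.6% in mouse 10, 20.4% in mouse 15 and 24.2% in mouse 16, as compared to 0 to 13.9% in the other 11 mice. Mouse 15 stood apart in addition. It had the highest or the lowest level of the 16 mice in 33.4% of the genes, where equal shares would give 12.5%, followed by mouse 10 with 29.9% and mouse 9 with 25.6%. Its profile lay 45.2% of the way from the median of the other WTD mice to the chow median, while the remaining mice lay between -12.7% and 10.9% (each against the median of the others). On the way to the atorvastatin median it lay at 129%, past that median, as compared to -41.3% to 44.9% in the remaining mice. It was on the chow side in 782 of the 840 genes that differed over 2-fold between these medians. The results are therefore given for all 16 mice, without mouse 15, and in the 11 mice that sampled weak genes well. Marker sums bore out the tissue: 5 hepatocyte genes summed to 50181 to 102218 CPM, the latter in mouse 15, 5 macrophage genes to 918 to 2241 CPM (201 to 282 CPM on chow), and 5 pancreatic acinar genes to at most 2.19 CPM with 3 of the 5 listed at 0. In bulk liver, fewer cells of a type and less RNA per cell cannot be told apart.

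The most variable genes included genes of the circadian clock, a macrophage scavenger receptor and genes of xenobiotic metabolism. The median standard deviation (SD) of log2 CPM over the 16 mice was 0.258, with quartiles of 0.202 and 0.326, as compared to a median of 0.0445 that counting error alone would give. The median SD was 0.244 without mouse 15 and 0.197 in the 11 mice. An SD above 1 was found for 13 genes. Dbp, a clock output transcription factor, varied most, from 3.14 CPM in mouse 13 over a median of 20.2 to 182 CPM in mouse 15 (SD 2.00). Its SD was still 1.92 without mouse 15 and 1.60 in the 11 mice, so many mice contributed. Arntl, the clock activator, ranged from 2.49 CPM in mouse 8 over a median of 29.3 to 47.6 CPM in mouse 1 (SD 1.36). Bcl6, a transcriptional repressor of hepatic lipid and sex-biased genes, ranged from 3.02 CPM in mouse 9 over 21.1 to 68.5 CPM in mouse 15 (SD 1.14), and Upp2, a uridine phosphorylase, from 36.4 over 74.8 to 411 CPM (SD 0.99).

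Some other wide spreads owed much to 1 or 2 libraries. Marco, a scavenger receptor of Kupffer cells, had a median of 12.1 CPM but reached 546 CPM in mouse 14 and 102 CPM in mouse 2, with 4.17 CPM as the lowest value (SD 1.85). Jak3, a kinase of cytokine receptors, lay between 25.3 and 43.8 CPM in 15 mice and at 1.31 CPM in mouse 10, and its SD of 1.17 was 0.17 in the 11 mice. Mouse 15 alone set much of the spread of the carbonyl reductase Cbr3 (0.465 to 47.4 CPM, SD 1.43 with and 0.60 without it), the epithelial transcription factor Elf3 (SD 1.16 and 0.51) and the adenylate cyclase Adcy1 (SD 1.68 and 1.23). The nuclear receptor gene Ppard was lowest in mouse 9 at 1.98 CPM, with an SD of 1.06 that fell to 0.48 in the 11 mice. Of the 100 most variable genes, 58 had their highest or lowest value in mouse 15 and 45 in mouse 9 or 10, and 68 of the 100 were among the 100 most variable without mouse 15. The sulfotransferase Sult2a1 (1.56 to 123 CPM, SD 1.34) and the cytochromes P450 Cyp2c69 (1.86 to 288 CPM, SD 1.52) and Cyp2c40 (15.7 to 306 CPM, SD 0.98) were likewise highest in mouse 15. These genes belong to families of close paralogs, between which shared reads may be split. The nicotinic receptor subunit gene Chrna4 ranged from 1.76 CPM in mouse 8 over 18.7 to 77.6 CPM in mouse 3 (SD 1.34, and 1.02 in the 11 mice).

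**Figure D1:**
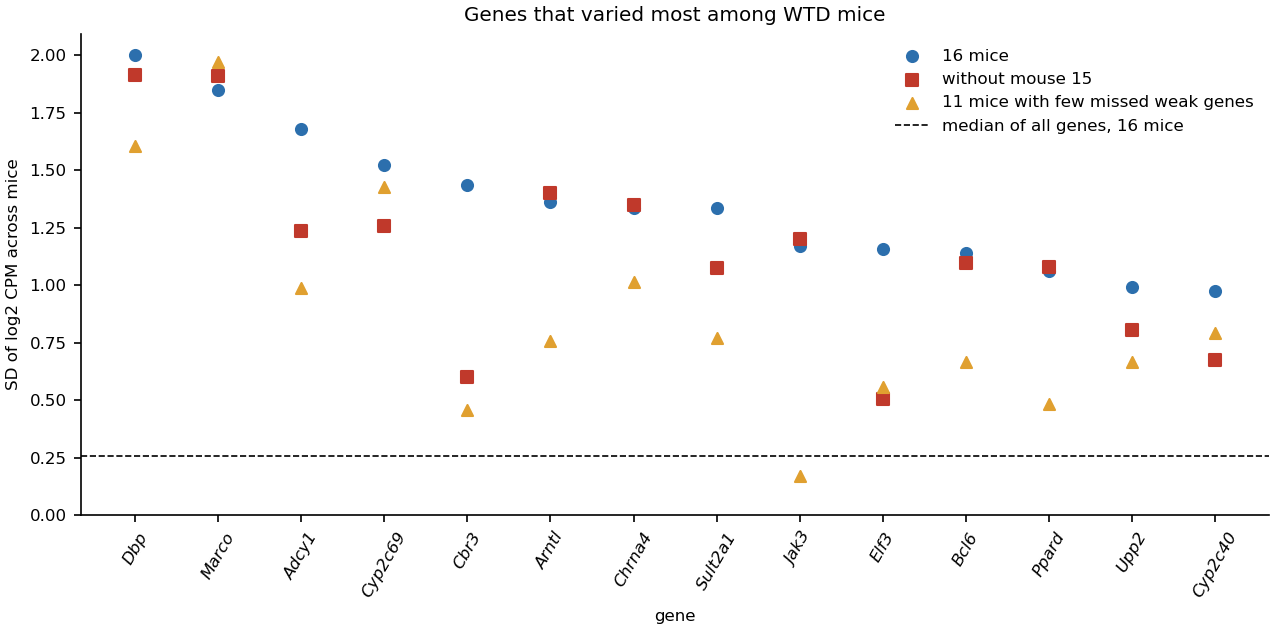
SD of log2 CPM over mice (vertical axis) of 14 of the 15 genes with the largest SD, for all 16 WTD mice (circles), without mouse 15 (squares) and in the 11 mice that sampled weak genes well (triangles), with the median of all genes (0.258) as a dashed line. The SD of Dbp stays between 1.60 and 2.00, that of Cbr3 goes from 1.43 to 0.60 without mouse 15 and that of Jak3 from 1.17 to 0.17 in the 11 mice.

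The spread within WTD mice was not shown to differ from that within the other groups for any single gene. In limma fits of the deviations from the group medians, 0 of 6710 genes (0%) passed a Benjamini-Hochberg adjusted p of 0.01 against chow and 0 (0%) against the atorvastatin group, with 568 and 398 genes at an unadjusted p under 0.05. The first 3 principal components held 23.3%, 14.9% and 13.9% of the variance among the 16 mice. Component 1 set mouse 15 apart (score 37.1) and went along with the share of counts in the 20 most abundant genes (Pearson r 0.84, adjusted permutation p = 0.005, Spearman rho 0.62), with an r of 0.45 without the 2 mice farthest from the median of that share and an adjusted permutation p of 0.0506 for rho. By rank it also went along with the total count (rho 0.71, adjusted permutation p = 0.0347, r 0.61 and 0.69 without the 2 farthest mice) and with the share of read pairs in no gene (rho -0.66, adjusted permutation p = 0.0359, r -0.57 and -0.46). Component 3 went along with the share of weak genes that had no count (Pearson r 0.88, adjusted permutation p = 0.0041), with mice 9 and 10 at the end of the scale, but with a rho of 0.39 and an r of 0.57 without the 2 farthest mice. With the share of weak genes without a count as a covariate in the slope fits below, 374 genes were called with Col1a1, 426 with Gpnmb, 670 with Alb, 343 with Lcn2, 47 with Dbp and 4 with Hmgcs1, as compared to 369, 353, 570, 304, 49 and 10 without it.

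The anchors themselves differed between mice by more than the counting error. Col1a1, encoding the alpha 1 chain of type I collagen (chromosome 11, 94936224 to 94953042, plus strand, GRCm38), was at 149 CPM in mouse 15 and between 271 and 555 CPM in the other mice (median of all 383), while the chow median was 30.9 and the atorvastatin median 184 CPM. Gpnmb, a transmembrane glycoprotein of lipid-laden macrophages (chromosome 6, 49036546 to 49070929, plus strand), was at 172 CPM in mouse 15 and at 359 to 612 CPM elsewhere (median 463), with 5.8 CPM on chow. Lcn2, an iron-siderophore binding acute phase protein (chromosome 2, 32384633 to 32388252, minus strand), was at 73.9 CPM in mouse 15 and at 237 to 565 CPM elsewhere (median 344). Mouse 15 was thus the lowest for all 3 disease-related genes and did not overlap the others, and for Alb it was the highest. Alb, encoding serum albumin (chromosome 5, 90460897 to 90476602, plus strand), reached 82523 CPM in mouse 15 and lay between 35769 and 54865 CPM in the other mice (median 48490), as compared to 91263 CPM on chow. Hmgcs1, encoding the cytosolic HMG-CoA synthase of cholesterol synthesis (chromosome 13, 119690379 to 119708260, plus strand), ranged from 71.8 CPM in mouse 8 to 207 CPM in mouse 1, and mouse 15 was in the middle with 140 CPM. Dbp (chromosome 7, 45705088 to 45710203, plus strand) lay between 57.7 and 182 CPM in mice 7, 8, 9, 14, 15 and 16 and between 3.14 and 26.8 CPM in the other 10.

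**Figure D2:**
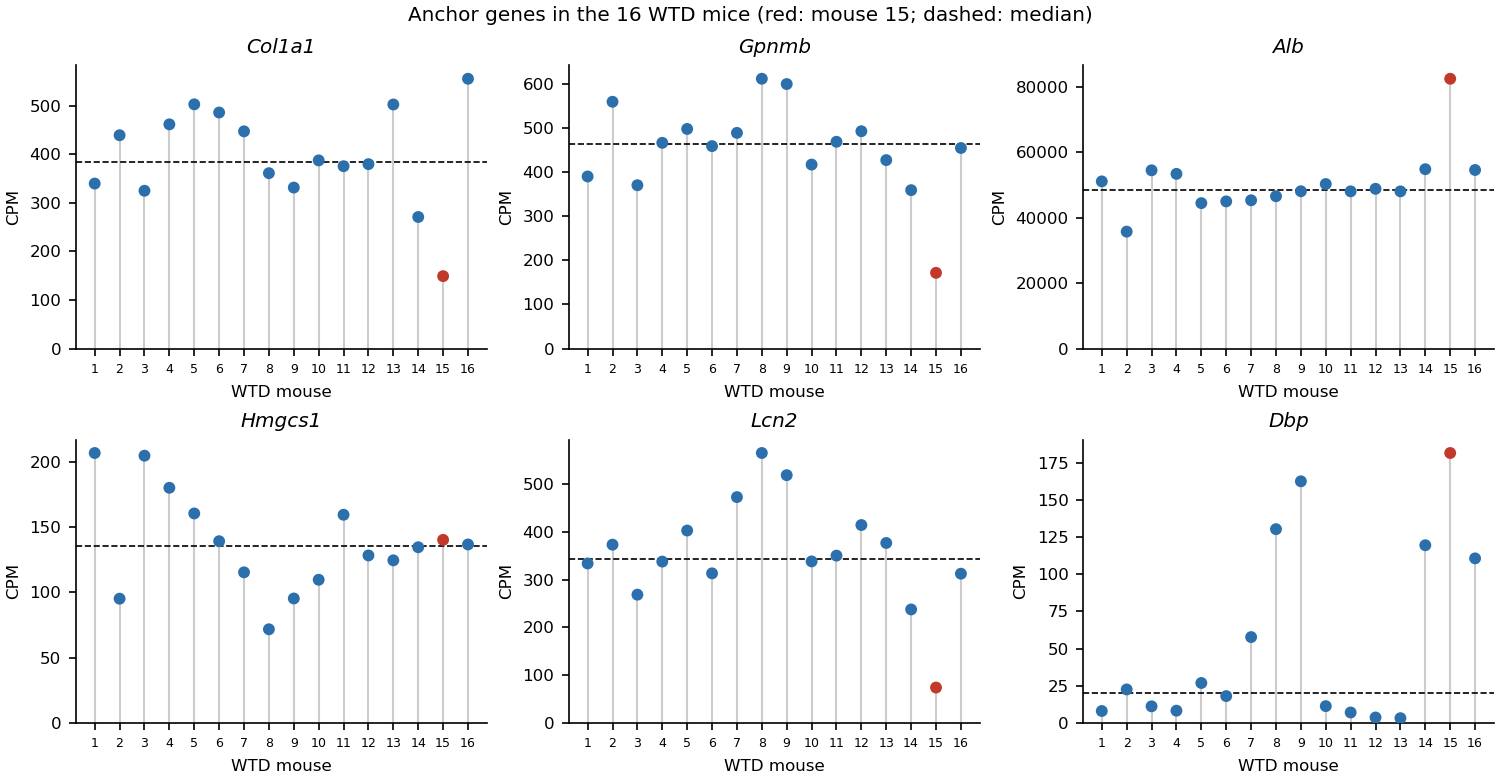
Level in CPM (vertical axis, from 0) of the 6 anchor genes in each of the 16 WTD mice, in order of number, with mouse 15 in red and the median as a dashed line. Mouse 15 lies below the other mice for Col1a1 (149 CPM), Gpnmb (172 CPM) and Lcn2 (73.9 CPM) and above them for Alb (82523 CPM).

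Gpnmb and Lcn2 rose and fell together, and this was the closest of the 15 anchor pairs. Their Pearson correlation of log2 CPM over the 16 mice was 0.96 and Spearman rho 0.87 (adjusted two-sided permutation p = 0.00015 for r, from the smallest p that 100000 permutations can give). It remained at 0.86 without mouse 15 (permutation p = 0.0001) and at 0.82 without mice 8 and 15, the 2 farthest from the Gpnmb median. Gpnmb and Alb went in opposite directions (r -0.87, rho -0.73, adjusted permutation p = 0.00382), with an r of -0.62 without mouse 15 (adjusted permutation p = 0.0473) and of -0.65 without mice 8 and 15. Alb and Lcn2 had an r of -0.82 and a rho of -0.69 (adjusted permutation p = 0.0161 for r), with -0.67 without mice 2 and 15 and -0.46 without mouse 15 alone. The relations of Col1a1 with these genes changed with the set of mice. Its r with Gpnmb was 0.75 (adjusted permutation p = 0.036), with Lcn2 0.73 (adjusted permutation p = 0.0455) and with Alb -0.74 (adjusted permutation p = 0.03), but the rho values were 0.32, 0.25 and -0.49, and r was 0.25, 0.16 and -0.31 without mouse 15. Without the 2 mice farthest from the Col1a1 median, 15 and 16, r was 0.29, 0.27 and -0.52, and these relations did not hold. In the 11 mice, which include neither, r was 0.70, 0.67 and -0.55 (unadjusted permutation p = 0.0167, 0.0223 and 0.0743). The reverse was seen for Hmgcs1, which opposed Gpnmb and Lcn2 more closely without mouse 15 (r -0.71 and -0.65, adjusted permutation p = 0.025 and 0.0425) than with it (-0.42 and -0.36, adjusted permutation p = 0.199 and 0.255). For Hmgcs1 and Lcn2, r was -0.28 without mice 1 and 8. Hmgcs1 and Col1a1 had an r of -0.04. Since Dbp fell into nearly separate sets of mice, no correlation with it is given, though its pairs count among the 15.

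**Figure D3:**
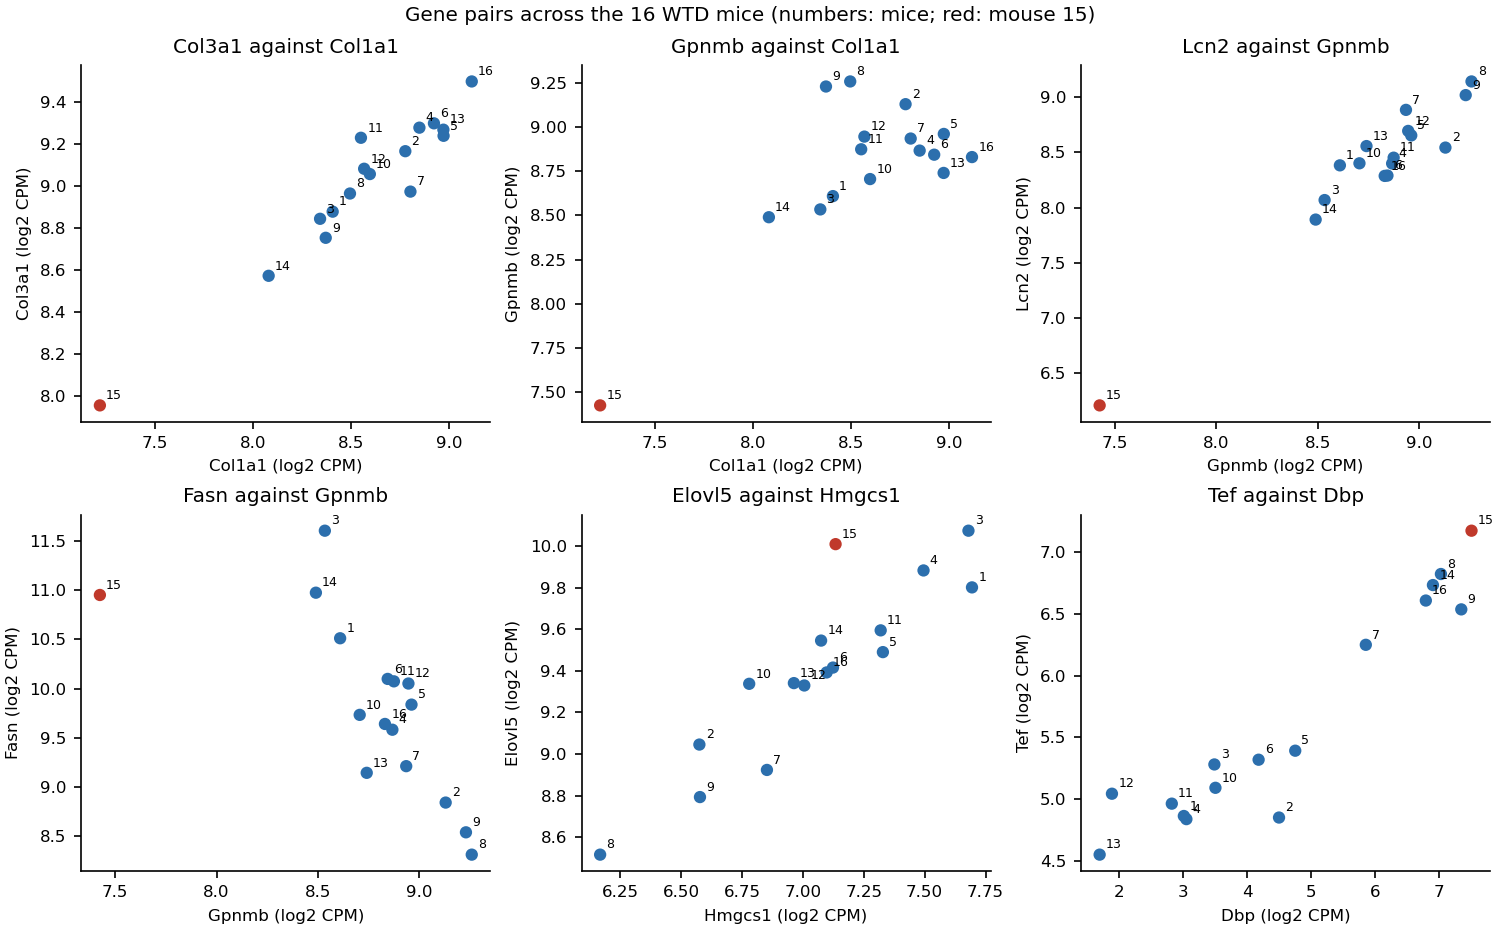
Scatter plots of log2 CPM of 6 pairs of genes over the 16 WTD mice, each point a numbered mouse, with mouse 15 in red: Col3a1 and Gpnmb against Col1a1, Lcn2 and Fasn against Gpnmb, Elovl5 against Hmgcs1 and Tef against Dbp. Lcn2 lies along a line with Gpnmb with and without mouse 15 (r 0.96 and 0.86), whereas the r of Gpnmb with Col1a1 goes from 0.75 to 0.25 without mouse 15 and is 0.70 in the 11 mice.

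Col1a1 marks fibrogenesis, and the matrix genes followed it while hepatocyte enzymes opposed it. In edgeR quasi-likelihood fits over the 16 mice, 369 of 6709 genes (5.5%) had a slope on Col1a1 that passed a Benjamini-Hochberg adjusted p of 0.01, 96 positive (1.43%) and 273 negative (4.07%). The call depended on mouse 15: without it 0 genes (0%) passed in edgeR, with 651 at an unadjusted p under 0.05 and 7 at an adjusted p under 0.05, and in the 11 mice 0 (0%) passed, with 735 at an unadjusted p under 0.05. The slopes were smaller without mouse 15 but 368 of the 369 kept their direction (71.7% of all genes did), with a median size of 0.42 as compared to 0.56 in fits that share the other 15 mice. The split also depended on the scaling, as 220 of 308 called slopes were positive when libraries were scaled by total count alone and 111 of 344 with relative log expression factors. Of the 17 interstitial matrix genes measured, 13 rose with Col1a1 and all 17 slopes were positive both with and without mouse 15 (median 0.78 and 0.74, as compared to -0.05 and -0.06 over all genes). Col3a1, encoding type III collagen, ran from 248 CPM in mouse 15 over a median of 537 to 722 CPM in mouse 16, where Col1a1 was also lowest and highest. Its slope was 0.78 ± 0.0827 (SE) with an adjusted p of 3.82e-06 in edgeR, and 0.77 with an adjusted p of 0.0101 without mouse 15. Col1a2, the partner chain of type I collagen, had slopes of 0.97 ± 0.104 and 0.94, and Col6a3 of type VI collagen 0.84 ± 0.095 and 0.82. Slopes for these collagens were thus of like size with and without mouse 15 but just missed the threshold without it.

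Other genes that rose with Col1a1 act in lipid transport, bile ducts and basement membrane. Osbpl3, an oxysterol-binding protein, ranged from 6.88 CPM in mouse 15 over 43.1 to 66.7 CPM (edgeR adjusted p = 0.000132), with a slope of 0.95 without mouse 15 (adjusted p = 0.208). The biliary marker genes Tspan8 and Epcam had slopes of 1.48 ± 0.233 and 1.26 ± 0.208, and Spp1, encoding osteopontin, 1.04 ± 0.164, with 3 of 9 cholangiocyte genes called positive. Without mouse 15 these 3 slopes were 1.13, 0.90 and 0.70 (edgeR adjusted p = 0.237, 0.286 and 0.286). Spp1 also served as a marker of lipid-associated macrophages, so its cell of origin is open. The basement membrane was represented by 4 positive calls of 9, among them Nid1 (0.72 ± 0.113), which links laminin and type IV collagen. Lum, a proteoglycan that orders collagen fibrils, was at 20.9 CPM in mouse 15 against a median of 132 CPM, with a slope of 1.62 (1.21 without mouse 15). Stellate cell genes were mixed: Ecm1, an extracellular matrix glycoprotein, fell with Col1a1 (-0.84 ± 0.111), and of 8 such genes 2 were called positive and 1 negative.

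Among the genes that fell with rising Col1a1 were many hepatocyte genes. Cyp2b13, a female-predominant cytochrome P450, was at 79.7 CPM in mouse 13 and 529 CPM in mouse 15, the next highest being 201 CPM in mouse 14, with a slope of -1.34 ± 0.115 (edgeR adjusted p = 1.75e-07) and -1.06 without mouse 15 (adjusted p = 0.0387). The sulfotransferase Sult2a8 (-1.52 ± 0.173) was at 323 CPM in mouse 15 against a median of 45.1 CPM. Its slope without mouse 15 was -0.76 (edgeR adjusted p = 0.341). Akr1d1, a reductase of bile acid synthesis, had a slope of -0.76 ± 0.0982, and Cyp7a1, the rate-limiting enzyme of that synthesis, -1.02 ± 0.169. Without mouse 15 these were -0.60 and -0.93 (edgeR adjusted p = 0.237 and 0.286). Of the lists, 10 of 23 xenobiotic metabolism genes, 8 of 20 secreted hepatocyte proteins, 6 of 12 periportal genes, 5 of 13 bile acid genes and 4 of 6 pericentral genes were called negative and none positive. None of the 15 macrophage genes passed in either direction in edgeR, and their slopes were positive in 13 with and in 1 without mouse 15. Of 14 genes of lipid-associated macrophages 3 were positive, among them Trem2 with 1.02 (0.44 without mouse 15, adjusted p in edgeR 0.00325 and 0.613). In the independent atorvastatin mice, 368 of the 369 genes had a slope of the same direction (69.0% of all genes did) and 287 of them passed there, where 1270 genes (18.9%) were called, 511 positive (7.62%) and 759 negative (11.3%).

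Gpnmb was accompanied by markers of lipid-associated macrophages, antigen presentation and the acute phase response. Over the 16 mice 353 genes (5.26%) were called, 109 positive (1.62%) and 244 negative (3.64%). Without mouse 15, 8 genes (0.119%) were called, 2 positive (0.0298%) and 6 negative (0.0894%), 811 had an unadjusted p under 0.05, and in the 11 mice 4 genes (0.0596%) were called. Of the 353 slopes 343 kept their direction without mouse 15 (70.6% of all genes did), with a median size of 0.49 as compared to 0.60. Total-count scaling again turned the split, with 345 of 449 called slopes positive. Of 13 lipid-associated macrophage genes 10 rose with Gpnmb (median slope 0.75, and 0.76 without mouse 15, as compared to -0.05 and -0.04 over all genes). Trem2, the lipid receptor of these cells, ranged from 17.8 over 73.2 to 98.3 CPM with a slope of 1.30 ± 0.153, and 1.05 without mouse 15 (edgeR adjusted p = 9.04e-06 and 0.0377). Lgals3, encoding galectin-3, followed with 1.02 ± 0.117 and 0.96, and Cd63, a tetraspanin of late endosomes, with 1.43 ± 0.167 and 0.95. Of 6 MHC class II genes 4 were called, among them H2-Eb1 (0.76 ± 0.105) and the invariant chain gene Cd74 (0.62 ± 0.0932), and of 22 lysosome genes 5. Of 23 acute phase genes 8 were called positive and 1 negative (median slope 0.36, and 0.44 without mouse 15).

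The steepest companion that did not depend on mouse 15 was H2-M2, a non-classical MHC class I gene. It was at 6.93 CPM in mouse 15, at 18 CPM in mouse 14, around a median of 33.1 CPM, and at 51.5 and 55.6 CPM in mice 2 and 8, which also had high Gpnmb levels of 560 and 612 CPM. Its slope was 1.65 ± 0.171 (edgeR adjusted p = 1.51e-06), 1.82 ± 0.287 without mouse 15 (adjusted p = 0.00515) and 2.14 in the 11 mice (adjusted p = 0.00984). Atp6v0d2, a subunit of the lysosomal proton pump, had a slope of 1.02 ± 0.18 (edgeR adjusted p = 0.000644, and 0.0201 without mouse 15). Lcn2 rose by 1.51 ± 0.127 per doubling of Gpnmb (edgeR adjusted p = 7.58e-08) and by 1.27 ± 0.198 without mouse 15 (adjusted p = 0.00515). Gpnmb and H2-M2 thus went together in the fits with and without mouse 15 and in the 11 mice.

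Lipid synthesis genes had negative slopes on Gpnmb, which were steeper without mouse 15. Fasn, encoding fatty acid synthase, ranged from 318 CPM in mouse 8 over 883 to 3112 CPM in mouse 3, and Acly, encoding ATP citrate lyase that supplies acetyl-CoA, from 84.3 CPM in mouse 9 over 263 to 923 CPM in mouse 3. Mice 2, 8 and 9, which had the highest Gpnmb levels (560, 612 and 600 CPM), had the lowest Fasn levels (459, 318 and 372 CPM), while mouse 15 had low Gpnmb and a Fasn level of 1979 CPM. The slopes were -1.78 ± 0.473 for Fasn and -1.72 ± 0.535 for Acly over 16 mice (edgeR adjusted p = 0.0234 and 0.0491) and -3.45 ± 0.502 and -3.55 ± 0.539 without mouse 15 (adjusted p = 0.00891 and 0.00939). In the 11 mice, which do not include mice 8 and 9 whose libraries missed many weak genes, the slopes were -3.44 and -3.50 and were not called (adjusted p = 0.0791 for both). Of 13 fatty acid synthesis genes 3 were called negative over 16 mice and 3 others without mouse 15, so none was called in both fits. Their median slope was -0.90 over 16 mice and -1.86 without mouse 15. Elovl6, a fatty acid elongase, was called without mouse 15 as well (-3.22), as were Acsl5, an acyl-CoA synthetase (-1.14), Aldh1a7, an aldehyde dehydrogenase (-1.16), and Adipor2, an adiponectin receptor (-0.98; -0.69 ± 0.093 over 16 mice). The cytochrome P450 genes Cyp2c29 and Cyp2c50 had slopes of -0.96 ± 0.0959 and -0.97 ± 0.0989, with -0.65 and -1.01 without mouse 15, and belong to a family of close paralogs. Over the 16 mice, of 23 xenobiotic metabolism genes 11, of 12 periportal genes 7 and of 10 mitochondrially encoded genes 6 were called negative. Without mouse 15 the 6 negative calls were Fasn, Acly, Elovl6, Acsl5, Aldh1a7 and Adipor2, with no cytochrome P450 or mitochondrially encoded gene among them. In the atorvastatin mice 350 of the 353 genes kept their direction (68.8% of all genes did) and 260 passed, where 1107 (16.5%) were called, 460 positive (6.86%) and 647 negative (9.64%).

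Lcn2 was fitted on the same mice as Gpnmb, with which it was closely correlated, so its companions are not independent of those of Gpnmb. It was accompanied by 304 genes (4.53%) over the 16 mice, 100 positive (1.49%) and 204 negative (3.04%), by 17 (0.253%) without mouse 15 and by 0 (0%) in the 11 mice in edgeR, where 678 had an unadjusted p under 0.05. Saa1, an acute phase apolipoprotein, ranged from 102 over 225 to 309 CPM and rose by 0.53 ± 0.0687 per doubling of Lcn2 (edgeR adjusted p = 3.66e-05) and by 0.71 without mouse 15 (adjusted p = 0.00659). Of 22 acute phase genes 8 were positive and 1 negative, and the number with a positive slope went from 14 to 21 without mouse 15. Hp, encoding haptoglobin, had a narrow range of 4132 to 8679 CPM (SD 0.23) and a slope of 0.32 ± 0.0523. Of the 17 genes called without mouse 15 the 14 negative ones included genes of lipid synthesis and glycolysis: Acly (-2.44), Acss2 (-1.52), Acaca (-1.37), Pklr (-1.21), Scd1 (-1.03), Elovl5 (-1.02) and Acat2 (-0.92). Total-count scaling gave 277 of 363 called slopes as positive. In the atorvastatin mice 125 of the 304 genes passed (581 genes, 8.66%, were called there).

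Alb, the most abundant hepatocyte product among the anchors, was followed by metabolic enzymes and opposed by macrophage genes over the 16 mice. Of 6709 genes 570 (8.5%) were called over 16 mice, 455 positive (6.78%) and 115 negative (1.71%), 1 (0.0149%) without mouse 15 and 24 (0.358%) in the 11 mice, 19 positive (0.283%) and 5 negative (0.0745%). Without mouse 15, 828 genes had an unadjusted p under 0.05 and 569 of the 570 slopes kept their direction (78.8% of all genes did), with a median size of 0.79 as compared to 0.96. With total-count scaling 73 of 306 called slopes were positive and the median slope of all genes went from 0.11 to -0.33, so directions on Alb are relative to that median. The gene called in all 3 sets of mice was Fads2, the delta-6 desaturase of polyunsaturated fatty acid synthesis. It was at 212 CPM in mouse 2 and 826 CPM in mouse 15, which were also the lowest and the highest for Alb, with a median of 383 CPM. Its slope was 1.55 ± 0.133 (edgeR adjusted p = 1.37e-07), 1.72 ± 0.23 without mouse 15 (adjusted p = 0.000862) and 1.76 in the 11 mice (adjusted p = 0.0028). Fads1, the partner delta-5 desaturase, had slopes of 1.05 ± 0.115 and 1.00 with and without mouse 15.

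Positive calls covered 12 of 23 xenobiotic metabolism genes, 9 of 19 secreted hepatocyte proteins, 9 of 17 PPAR alpha targets, 8 of 13 bile acid genes, 6 of 12 periportal and 5 of 6 pericentral genes, with none negative. Slc27a5, the bile acid-CoA ligase, had a slope of 1.23 ± 0.125 and 0.88 without mouse 15. Cyp2f2, a periportal cytochrome P450, was at 41.5 CPM in mouse 2, 469 CPM in mouse 15 and 88.3 CPM at the median, with a steep slope of 3.13 ± 0.332 (3.23 without mouse 15, edgeR adjusted p = 1.26e-05 and 0.0482). In the opposite direction, 10 of 14 lipid-associated macrophage genes, 7 of 15 macrophage genes and 4 of 6 MHC class II genes were called. Lpl, lipoprotein lipase, ranged from 312 CPM in mouse 15 over 674 to 935 CPM in mouse 2 with a slope of -1.38 ± 0.177 and -1.40 without mouse 15 (edgeR adjusted p = 1.84e-05 and 0.0482), and Cd63 had -2.38 ± 0.33 and -1.37. In the atorvastatin mice 558 of the 570 genes had the same direction (68.3% of all genes did) and 369 passed, where 1277 (19%) were called, 795 positive (11.8%) and 482 negative (7.18%).

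**Figure D4:**
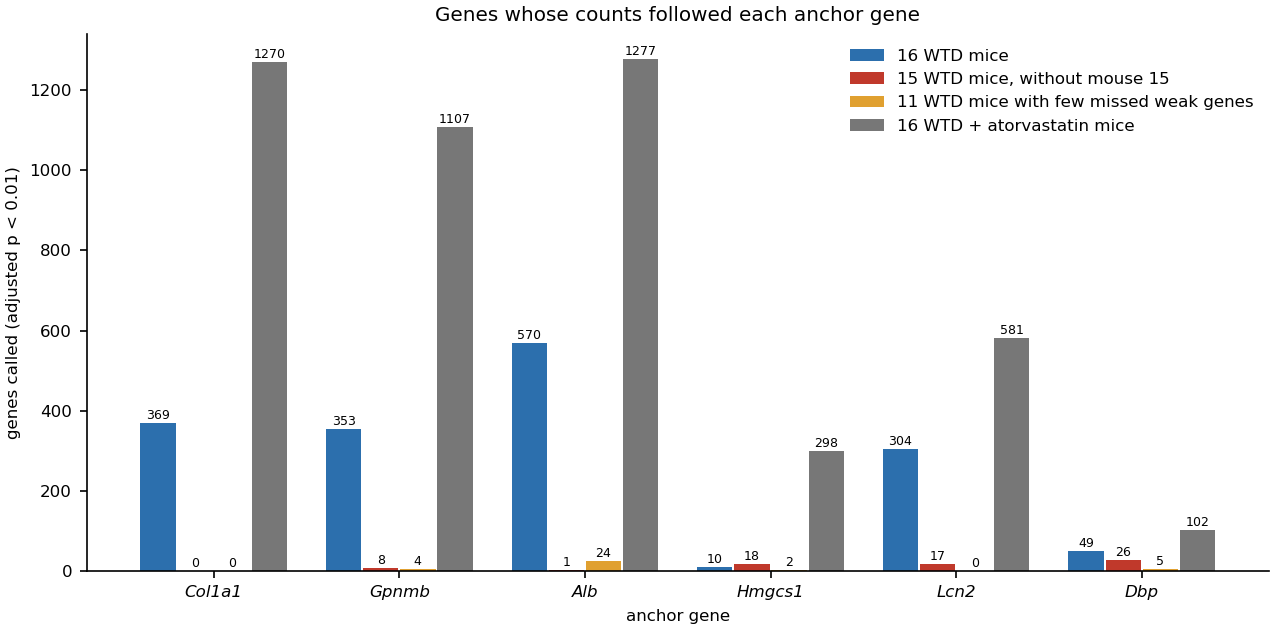
Number of genes (vertical axis) whose slope on each of the 6 anchors passed an adjusted p of 0.01 in edgeR, in all 16 WTD mice, without mouse 15, in the 11 mice that sampled weak genes well and in the 16 atorvastatin mice. For Col1a1 the count goes from 369 to 0 without mouse 15 and for Dbp from 49 to 26, whereas for Hmgcs1 it goes from 10 to 18.

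Hmgcs1 was chosen as an anchor of cholesterol synthesis, and the genes called with it included genes of fatty acid synthesis and elongation but none of the cholesterol biosynthesis list. Over 16 mice 10 genes (0.149%) were called, all positive, and without mouse 15 18 genes (0.268%), again all positive, among them all of the 10. In the 11 mice 2 genes (0.0298%) remained above the threshold. Elovl5, an elongase of polyunsaturated fatty acids, ranged from 366 CPM in mouse 8 over 677 to 1077 CPM in mouse 3 and rose by 0.95 ± 0.133 per doubling of Hmgcs1 (edgeR adjusted p = 0.00166), by 0.93 ± 0.0957 without mouse 15 (adjusted p = 7.86e-06) and by 0.90 in the 11 mice (adjusted p = 0.00896). Mouse 8 was the lowest for Hmgcs1 and Elovl5, and mice 1 and 3 were the highest for Hmgcs1 and within the 4 highest for Elovl5. The acetyl-CoA carboxylase genes Acaca (1.11) and Acacb (1.15) and the acetyl-CoA synthetase Acss2 (1.23) were called as well, and so were Dlat, a pyruvate dehydrogenase subunit (0.73 ± 0.122), Hsd17b12, a ketoacyl reductase of fatty acid elongation (0.57 ± 0.0905), and the water channel Aqp8 (0.70 ± 0.119). Chrna4 had a steep slope of 2.86 ± 0.393 (2.82 without mouse 15).

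All 12 cholesterol biosynthesis genes had positive slopes on Hmgcs1 (median 0.56, as compared to 0.02 over all genes), but 0 of them passed in edgeR over 16 mice and 1, Sc5d, a desaturase of the last steps (0.65), passed without mouse 15. The same held for the 9 other SREBP2 targets, all positive with a median of 0.35, of which Insig1, the sterol-regulated retention protein of SREBP, ranged from 108 CPM in mouse 8 over 194 to 387 CPM in mouse 3 (slope 1.04 ± 0.201, edgeR adjusted p = 0.016, and 1.02 without mouse 15, adjusted p = 0.00866). All 13 fatty acid synthesis genes were positive with a median of 1.08, 3 of them called and 4 without mouse 15. In the atorvastatin mice, where 298 genes (4.44%) were called, 219 positive (3.26%) and 79 negative (1.18%), 9 of the 10 genes passed in the same direction, Elovl5 with 0.93. The count was sensitive to single mice and was 0 without mouse 3 and 0 without mouse 8.

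Dbp varied with the rest of the circadian clock, and this covariation did not rest on mouse 15. Over 16 mice 49 genes (0.73%) were called, 26 positive (0.388%) and 23 negative (0.343%), 26 (0.388%) without mouse 15, of which 23 were among the 49, and 5 (0.0745%) in the 11 mice. Tef, a relative of Dbp, ranged from 23.3 CPM in mouse 13 over 39.3 to 144 CPM in mouse 15, the same 2 mice as for Dbp, and rose by 0.41 ± 0.0334 per doubling of Dbp (edgeR adjusted p = 5.54e-08), by 0.39 without mouse 15 (adjusted p = 2.39e-07) and by 0.37 in the 11 mice (adjusted p = 0.00117). Nr1d1, encoding the clock repressor Rev-erb alpha, ranged from 47.7 over 85.1 to 219 CPM (slope 0.32 ± 0.0288, and 0.31 without mouse 15). Arntl went the other way with a slope of -0.54 ± 0.0792 (edgeR adjusted p = 0.000766) and -0.62 without mouse 15 (adjusted p = 0.000441). The 6 mice with the most Dbp were the 6 with the least Arntl, at 2.49 to 13.4 CPM as compared to 26.8 to 47.6 CPM in the other 10, and the 6 with the most Tef. Slopes on Dbp were fitted over both sets together, and slopes within the 6 or the 10 were not tested. The 6 include mice 8, 9, 15 and 16, whose libraries missed many weak genes (23.0%, 43.3%, 20.4% and 24.2%). Mouse 10, which missed the most (48.6%), was in the other set. Of the 6, only mice 7 and 14 are among the 11 mice. With the share of missed weak genes as a covariate, 47 genes were called with Dbp over 16 mice. The part of library sampling in this split was not tested. Of 11 clock genes besides Dbp, 6 were called positive (Tef, Nr1d1, Nr1d2, Per2, Hlf and Bhlhe40) and 2 negative (Arntl and Nfil3). Without mouse 15, 4 and 1 were called.

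Metabolic genes were called with Dbp as well. Upp2 had a slope of 0.44 ± 0.0591 and Rgs16, a regulator of G protein signaling, 0.37 ± 0.0528, and Rgs16 also passed in the 11 mice (0.40, edgeR adjusted p = 0.00542), whereas Upp2, Chka, Clpx, Pdk4 and Igfbp1 did not (adjusted p from 0.0145 to 0.318). Chka, encoding choline kinase alpha, ranged from 54.7 CPM in mouse 15 over 204 to 286 CPM in mouse 1 and had a slope of -0.35 ± 0.043 on Dbp, and Clpx, a mitochondrial chaperone, of -0.21 ± 0.0277. The PPAR alpha target Pdk4, a brake on pyruvate dehydrogenase, ranged from 11.1 CPM in mouse 14 over 34.9 to 82.3 CPM (slope -0.35 ± 0.055, edgeR adjusted p = 0.00083 and, without mouse 15, 0.00395), and Igfbp1, a fasting-responsive hepatokine, from 32.7 CPM in mouse 14 over 127 to 233 CPM (slope -0.39 ± 0.0608). In the atorvastatin mice, whose Dbp median was 58.5 CPM, all 49 slopes kept their direction (66.1% of all genes did) and 27 passed, where 102 genes (1.52%) were called. Hour of sacrifice per mouse is not given, so its part in these values was not tested.

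The clock factors Bmal1 and Clock bind the E-box CACGTG, and the window from 250 bases before to 50 after the annotated start was searched for it in the RefSeq promoter table (GRCm38.p6). The motif reads the same on both strands and was present in 649 of 5362 matched genes (12.1%), in 5 of the 19 matched genes that rose with Dbp (26.3%: Tef, Bnip3, Eva1a, Gpr146 and Jade1) and in 1 of the 18 that fell (5.56%: Slc16a1). Of 9 matched clock genes it was present in Tef only. The stretches of Tef (chr15:81811254-81811303, plus strand, motif starting at -138) and of Bnip3, a mitophagy receptor gene with a slope of 0.11 on Dbp (chr7:138909587-138909636, minus strand, motif starting at -108), are shown because both genes rose with Dbp, with the E-box in capitals.
Tef: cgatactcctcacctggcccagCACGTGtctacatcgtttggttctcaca
Bnip3: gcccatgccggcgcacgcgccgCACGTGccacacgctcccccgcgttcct

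Genes of a list also went together without reference to an anchor. The median correlation over pairs of genes across the 16 mice was 0.79 among interstitial matrix genes, 0.74 among cytosolic ribosomal protein genes, 0.74 among periportal genes, 0.73 among genes of lipid-associated macrophages, 0.67 among fatty acid synthesis genes and 0.67 among MHC class II genes, as compared to 0.014 over all pairs of the 6710 genes. Without mouse 15 these were 0.67, 0.74, 0.61, 0.50, 0.64 and 0.64. These pairs share the mice and their libraries and are a description of these lists. Xenobiotic metabolism genes (0.33) and clock genes (0.35), which hold members of opposite phase, were less alike. A look at the mean centred log2 level of each list by mouse showed where the programs parted. Mouse 15 was low in interstitial matrix (-1.09), lipid-associated macrophages (-1.06) and cholangiocyte genes (-1.01) and high in pericentral (1.01), periportal (0.93) and xenobiotic (0.83) genes. Mouse 3 was highest in fatty acid synthesis (1.07) and mice 8, 2 and 9 lowest (-0.72, -0.70 and -0.65). The mean of the Kupffer cell genes was highest in mouse 14 (1.33), followed by mouse 2 (0.95), but this list holds Marco. With a median of 12.1 CPM and 546 CPM in mouse 14, Marco passed the mean of 20 CPM through its highest mice. The places of mice 14 and 2 are therefore not a result about Kupffer cell genes in general. These genes were lowest in mouse 10 (-1.02), which was also the lowest in sinusoidal endothelium (-0.75), where Ehd3 was at 10.7 CPM and Ptprb at 16.5 CPM. Mouse 10 is the library that had no count for the most weak genes, and the part of this in its low values was not tested.

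**Figure D5:**
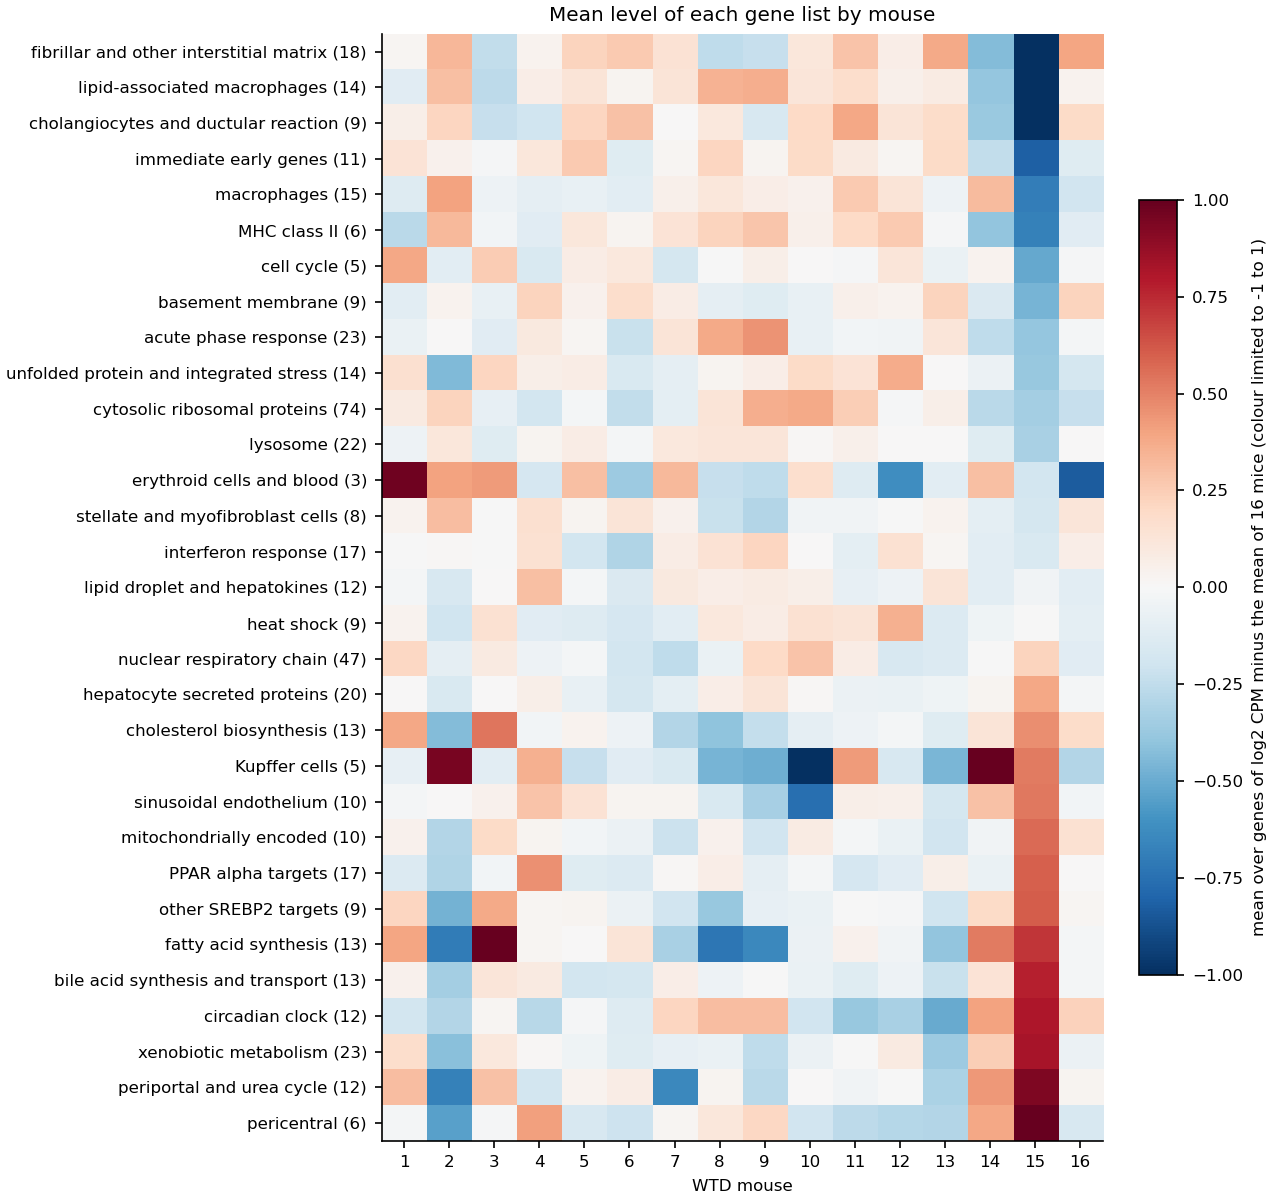
Mean of the centred log2 CPM of the members of each gene list (rows) in each of the 16 WTD mice (columns), on a color scale limited to -1 (blue) to 1 (red), with the number of members in brackets. Mouse 15 is low in interstitial matrix (-1.09) and high in pericentral genes (1.01), and fatty acid synthesis is highest in mouse 3 (1.07).

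The slopes within WTD mice were compared with those within atorvastatin mice by an interaction term in edgeR. For Col1a1 and Gpnmb 0 genes (0%) had a slope that differed at an adjusted p of 0.01, with 693 and 730 at an unadjusted p under 0.05. For Alb 4 genes (0.0596%) did, with 903 at an unadjusted p under 0.05. Cyp2f2 had a steeper slope on Alb in WTD mice (3.13) than in atorvastatin mice (0.64), a difference of 2.49. Abcc4, an efflux transporter of bile acids and nucleotides, had a slope of 0.14 in WTD mice and of -2.59 in atorvastatin mice. Cyp4a32, a fatty acid hydroxylase, had slopes of -0.51 and 2.93 and Ccdc141 of -0.54 and 1.26. The adjusted p of each of these 4 differences was 0.00353 in edgeR, and none of the 4 was called without WTD mouse 2.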

How the data were processed

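Livers of 42 mice were sequenced, and the 16 WTD libraries are described here. Per the labels and the methods of the study, the authors prepared strand-specific poly-A libraries, sequenced them as read pairs, trimmed them with Trimmomatic, mapped the pairs on GRCm38 (STAR 2.5), assigned them to genes (HTSeq 0.6.1p1), and deposited the raw counts in 1 table. Gene symbols were matched to the identifiers of the table from a separate reference of gene names. Positions were taken from GENCODE annotation of GRCm38, a later release than that of the study. Summary lines of the table, which name no gene, were left out of library sizes; read pairs in no gene were 2.12% to 2.78% of the WTD libraries.

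From the counts, TMM factors were computed over the 42 libraries on the 15574 genes that passed filterByExpr (minimum count 10, minimum total 15), and log2 CPM used a prior count of 2. Genes with a mean of at least 20 CPM in WTD mice were analysed. The slope of each gene on the centred log2 CPM of an anchor was tested in R 4.3.3 by edgeR 4.0.16 (quasi-likelihood, robust), with Benjamini-Hochberg adjustment over 6709 genes and a call at an adjusted p under 0.01. Spread was tested with limma 3.58.1. The fits of the 6 anchors share the same mice and are not independent of each other. Anchor pairs were tested by two-sided permutation (100000 resamples) with adjustment over 15 pairs, and components over 12 relations, at an adjusted p under 0.05. p-values measure the spread between mice. Sqle had been intended as the sterol anchor, but its mean was under 20 CPM and Hmgcs1 took its place as the design allowed. No pair of libraries held the same values. Fits were run on simulated data in which unchanged genes varied independently of each other, without unequal sampling by the libraries. Those data do not bear on the dependence of the calls on mouse 15 or on missed weak genes. With 15661381 to 36224054 counts per library, counting error was small beside the spread between libraries (median SD 0.0445 and 0.258). That error does not cover the unequal sampling of weak genes, and the median SD was 0.197 in the 11 mice. The number of mice limits the precision, and the part of library quality in the spread was not tested.

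The anchors, gene lists and the set of mice were chosen with earlier results of these data known. Named were the anchors, the 15 genes of largest SD, the called genes of smallest p with each anchor (10 positive and 6 negative with Col1a1, Gpnmb and Alb, 6 and 3 with the others), the 2 most variable members of each list, and the called genes of each interaction. Of these, 2 are not reported here. Other called list members, genes called without mouse 15 and genes with the E-box were named after their values were seen. Lists are described by counts and medians without a test. Promoter windows were taken from RefSeq, and sequence stretches that lie in annotated transcripts were not shown. Alternatives were other normalizations, filters, prior counts, tools (DESeq2 1.42.0, limma-voom), covariates and sets of mice. Mice of the chow group and other details of the table were used only for comparison.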

Additional observations from a re-analysis of the deposited data

Results flagged for a closer look

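The level of Col1a1 in chow mouse 5, 80.8 CPM, stood apart from the other 9 chow mice (15.1 to 42.6 CPM), with a gap to its nearest neighbour that is large for the range of the group. Chance gives such a gap in about 1 of 20 groups of normally distributed values. All 6 anchors were screened in the chow group, so at least 1 such gap by chance is more likely than that. The slopes of 4 genes on Alb differed between WTD and atorvastatin mice by the interaction test in edgeR (adjusted p = 0.00353 for each). The difference of the slopes, WTD minus atorvastatin, was 2.73 for Abcc4 (0.14 and -2.59), 2.49 for Cyp2f2 (3.13 and 0.64), -3.45 for Cyp4a32 (-0.51 and 2.93) and -1.81 for Ccdc141 (-0.54 and 1.26). No gene was called in the interaction without WTD mouse 2, and 7 were called without WTD mouse 6.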

How the results depend on the processing

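No paired analysis was possible because the numbers only name mice in the order of deposition and the groups consist of different mice. The number of mice limits these results more than counting error, and the part of library quality in them was not tested. None of the named slopes that were called over 16 mice changed direction under an alternative, but total-count scaling turned the split of all called genes with Col1a1, Gpnmb, Alb and Lcn2. Without each WTD mouse in turn, the number of genes called ranged from 0 to 424 with Col1a1, 8 to 440 with Gpnmb, 1 to 667 with Alb and 17 to 364 with Lcn2, the lowest in each case without mouse 15. It ranged from 0 to 18 with Hmgcs1 (0 without mouse 3 or 8, 2 without mouse 7 or 9, 3 without mouse 2, 4 without mouse 1 or 12, 6 without mouse 6, 18 without mouse 15) and from 26 to 57 with Dbp (26 without mouse 15, 31 without mouse 8). Over the same omissions the median SD was 0.244 to 0.264, 10 to 15 genes had an SD over 1, and the spread tests called 0 to 1 against chow (1 without mouse 15) and 0 to 0 against atorvastatin. The interactions called 0 to 2 on Col1a1 (2 without mouse 15), 0 to 0 on Gpnmb and 0 to 7 on Alb.

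In the order Col1a1, Gpnmb, Alb, Hmgcs1, Lcn2 and Dbp, an adjusted p under 0.05 called 679, 816, 1050, 34, 731 and 103 genes, the 11 mice 0, 4, 24, 2, 0 and 5, and the fits without the 2 mice farthest from the anchor median 0, 0, 0, 0, 0 and 18. Rank-based scores of the anchor called 8, 28, 73, 5, 47 and 31. Without the 4 libraries other than mouse 15 that missed weak genes, an alternative added after seeing the data, 594, 853, 893, 0, 656 and 14 were called. DESeq2 called 550 with Gpnmb, 49 with Hmgcs1, 474 with Lcn2 and 90 with Dbp, and limma-voom 192 with Col1a1, 89 with Gpnmb, 50 with Hmgcs1, 25 with Lcn2 and 31 with Dbp. Dbp as a covariate left 169 with Col1a1 and gave 18 with Hmgcs1. With total-count scaling 306 were called with Alb and 1 with Hmgcs1. Hmgcs1 had 6 calls with relative log expression factors, 2 with all expressed genes tested and 4 with the share of missed weak genes as a covariate, and Dbp had 31 among genes of at least 50 CPM. In the 11 mice 4 genes had an SD over 1. A prior count of 0.5 gave 1 gene of different spread against chow, as did an adjusted p under 0.05, which gave 23 for the interaction on Alb. A minimum of 20 CPM in both groups of a spread test was also added after seeing the data. The cause of these shifts was not tested.

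For Col1a1 with Gpnmb, Alb and Lcn2, Spearman rho was 0.32, -0.49 and 0.25, r without the 2 farthest mice 0.29, -0.52 and 0.27, and r in the 11 mice 0.70, -0.55 and 0.67. Alb and Lcn2 had an r of -0.54 in the 11 mice. Over omissions of a mouse, r ranged from 0.25 to 0.82 for Col1a1 and Gpnmb, -0.83 to -0.31 for Col1a1 and Alb, -0.09 to 0.01 for Col1a1 and Hmgcs1, 0.16 to 0.80 for Col1a1 and Lcn2, -0.90 to -0.62 for Gpnmb and Alb, -0.71 to -0.31 for Gpnmb and Hmgcs1, 0.86 to 0.98 for Gpnmb and Lcn2, 0.22 to 0.48 for Alb and Hmgcs1, -0.92 to -0.46 for Alb and Lcn2 and -0.65 to -0.24 for Hmgcs1 and Lcn2. The r of component 3 with missed weak genes was 0.60 with scaled genes. Among single genes, slopes kept their side of the threshold in 884 comparisons with an alternative and lost it in 180.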
